A study of Homo sapiens with 12 samples.

Results

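The 10 small nuclear RNA (snRNA) genes other than U1 were followed in HEK293T, a human cell line from embryonic kidney that takes up foreign DNA easily. The genes were RNU2-2P, RNU4-1, RNU4-2, RNU5A-1 and RNU5B-1 of the major spliceosome, RNU4ATAC, RNU6ATAC, RNU11 and RNU12 of the minor spliceosome, and RNU7-1 of histone mRNA processing. They were chosen by name, as 10 of the 58735 genes counted. Of these, 6 had 888 counts in all over 12 libraries, and RNU2-2P, RNU11, RNU12 and RNU7-1 had 0 in every library. All cells were transfected and their total RNA was taken 24 h later. The groups were cells given 500 ng of a miR-211 plasmid and cells given a control plasmid, and cells given a U1 siRNA (Dicer-substrate type, 1 nM) and cells given a scrambled oligo, with 3 libraries each. The titles of the 6 oligo libraries, but not of the plasmid libraries, also carry the letters WT, which the labels do not explain. The study's title is about mRNA splicing and microRNAs that lie in introns. The labels put plasmid uptake, read by GFP, at 50% of cells or more, so a plasmid library mixes cells with and without the plasmid, and in such a mixture fewer responding cells and a smaller response per cell cannot be told apart. Nothing in the labels says that replicates came from separate cultures, so a p-value here speaks only to how much these libraries scatter, and that scatter may be technical.

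Introns are removed by snRNA-protein particles. In the major spliceosome U1 reads the 5 prime splice site, U2 the branch point, and U4, U5 and U6 join as a tri-snRNP in which U4 holds U6 inactive until it is released. A rarer class of introns is removed by U11 and U12 in place of U1 and U2 and by U4atac and U6atac in place of U4 and U6, with U5 shared, while U7 guides cleavage of histone pre-mRNA. Most of these RNAs are made by RNA polymerase II, carry no poly(A) tail, and are held by a ring of Sm proteins at a short uridine-rich site, whereas U6atac is a polymerase III product bound by LSm proteins.

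The sequences below are the transcripts of both U4 genes, shown because their near identity limits which read pairs can be given to 1 gene, and of RNU4ATAC, shown because its level differed most in value between the plasmid groups. They are GENCODE 29 transcripts written 5 prime to 3 prime as DNA. Capitals mark the Sm site letters searched for on the RNA strand, ATTTTTG or ATTTTTTG.
RNU4-1: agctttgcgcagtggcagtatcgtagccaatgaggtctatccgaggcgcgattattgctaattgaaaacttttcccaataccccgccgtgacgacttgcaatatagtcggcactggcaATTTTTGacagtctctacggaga
RNU4-2: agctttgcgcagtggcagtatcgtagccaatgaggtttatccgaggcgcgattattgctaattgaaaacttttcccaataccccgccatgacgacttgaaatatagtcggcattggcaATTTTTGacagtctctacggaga
RNU4ATAC: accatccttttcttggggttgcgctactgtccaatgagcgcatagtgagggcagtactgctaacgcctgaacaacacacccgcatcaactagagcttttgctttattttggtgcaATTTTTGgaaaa

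Those letters occurred in 8 of the 10 members and in 7.42% of 1900 snRNA transcripts. RNU7-1 and RNU6ATAC held neither.

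The U4 genes lie near each other on the minus strand (GRCh38), RNU4-1 at chr12:120293097-120293237 and RNU4-2 at chr12:120291763-120291903. They were identical at 137 of 141 bases, and counted from base 1 at the 5 prime end RNU4-2 differed from RNU4-1 by C37T, G88A, C99A and C113T. RNU5A-1 lies inside an intron of PARP16, which runs the other way. RNU4ATAC is on the plus strand at chr2:121530881-121531007, in introns of CLASP1 on the other strand and of AC012447.1 on its own strand. RNU6ATAC is on the minus strand at chr9:134164439-134164564.

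Gene counts totalled 4515728 to 9290686 per library. U1 siRNA replicate 2 stood apart, with the lowest total and 44.5% of its uniquely mapped pairs outside annotated exons, against 14.5% to 25.5% in the other 11 libraries. MIR211 stood at 271, 236 and 256 counts per 1000000 gene counts (CPM) in the miR-211 libraries, against 0.161, 1.30 and 0.134 CPM in the plasmid control libraries. The 148 annotated U1 genes summed to 37.7, 40.1 and 35.0 CPM in the U1 siRNA libraries, against 36.3, 40.1 and 36.8 CPM with the scrambled oligo (exact permutation test, 2-sided, p = 0.9, where 0.1 is the smallest p possible). Lower U1 was thus not seen in this sum, although the labels state an inhibition of 30%. Only pairs that map to 1 place are counted, so pairs that fit several U1 copies are left out. The sum therefore cannot tell whether U1 as a whole was lower. Of 9 HEK293T markers, 6 reached 1 CPM in every library, and PAX2, NES and INA were at 0 in some. The 12 markers of other cells summed to 25.5 CPM in U1 siRNA replicate 2 and to 4.46 to 13.0 CPM in the other 11 libraries.

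The members at 0 share a place in the annotation. RNU2-2P, a U2 gene annotated under a pseudogene symbol (chr11:62841619-62841809, minus strand), is covered at all 191 bases by a same-strand exon of WDR74, a ribosome biogenesis gene. RNU11 (chr1:28648600-28648733, plus strand) is covered at 131 of 134 bases by the noncoding AL360012.1. RNU12 (chr22:42615244-42615393, plus strand) is covered at all 150 bases by the noncoding Z93241.1. RNU7-1 (chr12:6943816-6943878, plus strand) is covered at 62 of 63 bases by C12orf57 and over its whole length by U47924.2 on the other strand. None of the 6 members with counts has an exon of another gene over it.

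STAR, the aligner named in the processing notes, counts a pair that lies on exons of more than 1 gene for none of them. Over all 1909 annotated snRNA genes, 35 were covered at 90% or more by same-strand exons of another gene, and 35 of 35 had 0 counts in all 12 libraries, among them the 4 members. Without the members it was 31 of 31. Of the 1834 snRNA genes under no other exon, 522, or 28.5%, were at 0. Of 27 covered by exons of the opposite strand only, 23 were at 0 in the unstranded column with 33 counts in all, but 7 were at 0 in the sum of the strand columns, where the counts came to 1510. The 4 members stayed at 0 in both strand columns too. Their 0 in 12 libraries allows up to 0.0366 CPM of pairs that could be assigned to them, by the limit of 3 counts, and says nothing of pairs shared with the covering gene.

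**Figure D1:**
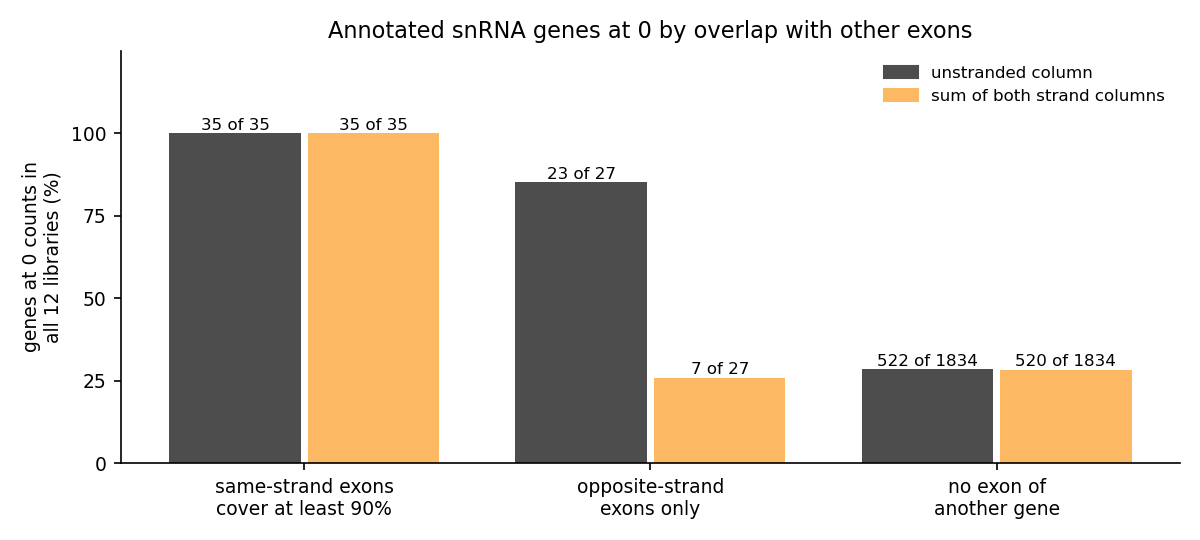
The bars give the percent of annotated snRNA genes with 0 counts in all 12 libraries (vertical axis) by their overlap with exons of other genes, in the unstranded column (dark) and the sum of the strand columns (light). All 35 genes under same-strand exons were at 0 in both, against 522 of 1834 under no exon in the unstranded column.

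The covering genes differed in assigned counts, which also leave out pairs that lie on the snRNA genes. WDR74 had 105 to 232 counts per library, a mean of 23.2 ± 1.81 CPM (SD, n = 12), and C12orf57 had 20 to 72, a mean of 5.13 CPM. Z93241.1 had 4 to 13 counts per library, and AL360012.1 had 0 in all 12. WDR74 differed by a log2 fold change of -0.01 (SE 0.13) with miR-211 and 0.03 (SE 0.12) with U1 siRNA, and neither passed the test.

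Among the members the U5 genes, shared by both spliceosomes, had the most counts. RNU5A-1 had 52, 40 and 23 counts in the miR-211 libraries, 50, 32 and 26 in the plasmid control libraries, 33, 22 and 30 for U1 siRNA, and 48, 31 and 39 for the scrambled oligo. RNU5B-1 had 33, 20 and 17 counts with miR-211, 26, 18 and 16 with the plasmid control, 20, 12 and 11 for U1 siRNA, and 16, 9 and 13 for the scrambled oligo. RNU5A-1 was above RNU5B-1 in every library, and for both genes the miR-211 libraries overlapped with the plasmid control libraries and the U1 siRNA libraries with the scrambled oligo libraries. RNU4ATAC had 22, 15 and 17 counts with miR-211, 8, 5 and 10 with the plasmid control, 6, 7 and 8 for U1 siRNA, and 10, 6 and 14 for the scrambled oligo. All 3 miR-211 libraries were above the other 9 by count, at 15 or more against 14 or less, with depth not taken into account. The share of all genes with such an order was not taken, so this is only a description. RNU4-2 had 13, 7 and 8 counts with miR-211, 16, 3 and 11 with the plasmid control, 11, 1 and 4 for U1 siRNA, and 8, 9 and 5 for the scrambled oligo. RNU4-1 had 22 counts in all, at most 5 in a library, and RNU6ATAC had 5 counts in all, at most 1 in a library.

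Set against length, the order of assigned counts was RNU5A-1, RNU5B-1, RNU4ATAC, RNU4-2, RNU4-1 and RNU6ATAC. Pairs that fit several copies are left out, so this order does not rank amounts of RNA. The values were 45.7 ± 14.4, 22.8 ± 9.89, 12.3 ± 5.95, 8.44 ± 5.08, 1.79 ± 1.50 and 0.501 ± 0.626 CPM per kb of transcript (SD, n = 12 libraries). Each stood above the next in 12, 12, 9, 11 and 8 of 12 libraries, so the order of the first 3 genes held in all 12 and the later steps did not, with RNU4-2 and RNU4-1 tied in 1 library. Within the U4 pair RNU4-2 took 96 counts and RNU4-1 took 22, so 81.4% went to RNU4-2 (exact 95% interval 73.1% to 87.9%, counting error only). Within the U5 pair RNU5A-1 took 426 and RNU5B-1 took 211, so 66.9% went to RNU5A-1 (63.1% to 70.5%). By group RNU5A-1 took 62.2% with miR-211, 64.3% with the plasmid control, 66.4% for U1 siRNA and 75.6% for the scrambled oligo. Only pairs that map to 1 place are counted, so these shares rest on pairs that reach a base where the copies differ, and are uncertain for that reason.

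**Figure D2:**
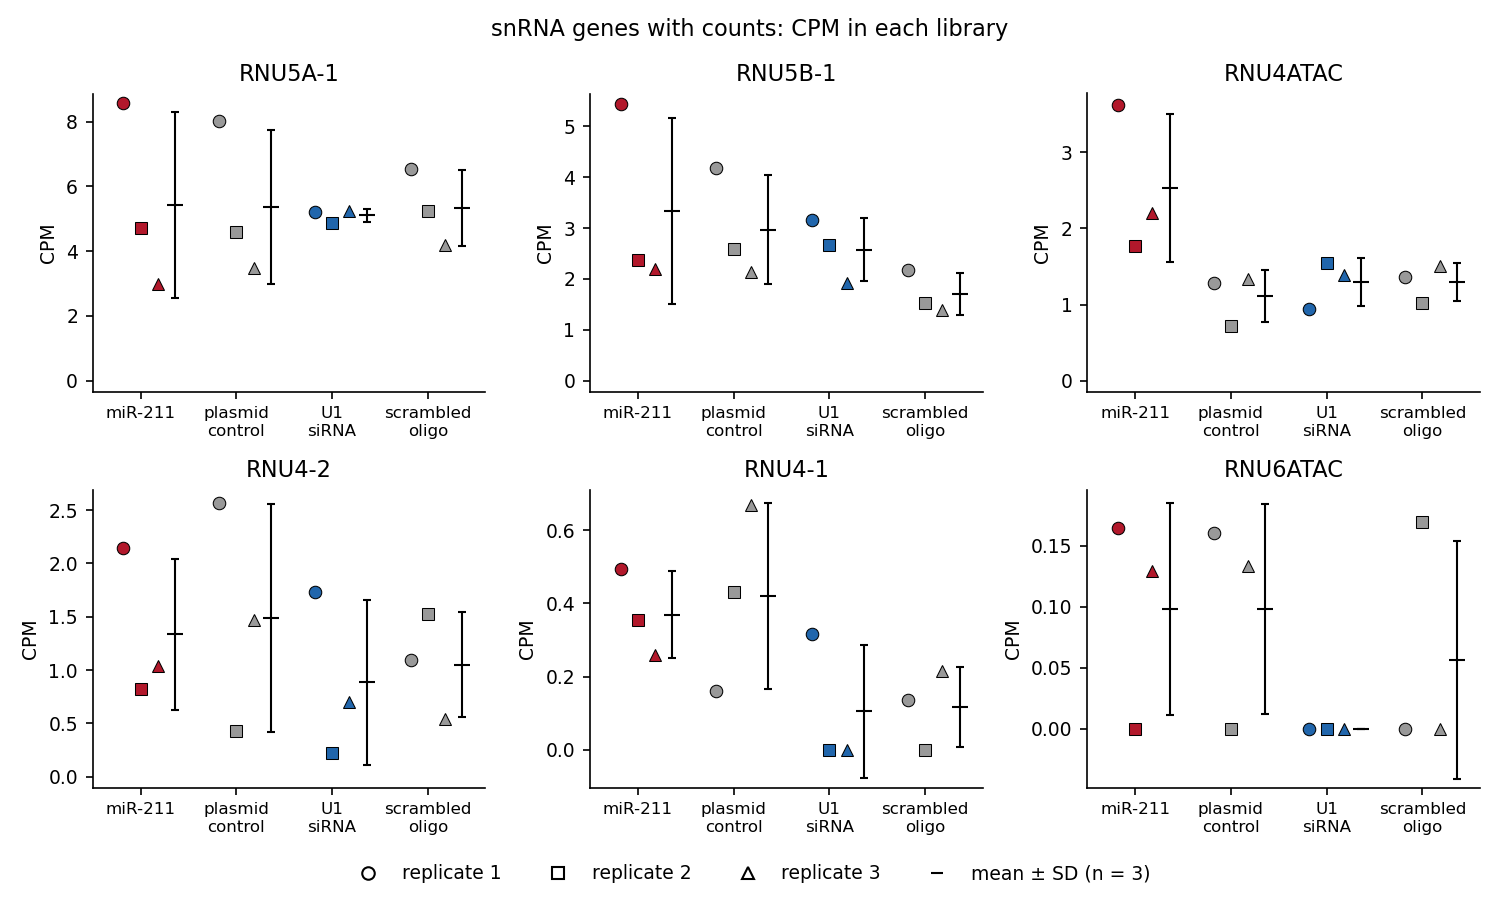
Each panel gives 1 snRNA gene with its CPM in every library (vertical axis) for miR-211, plasmid control, U1 siRNA and scrambled oligo, with the mean and SD of 3 libraries. RNU4ATAC lies at 1.77 CPM or more in the miR-211 libraries and at 1.34 CPM or less in the plasmid control libraries, and the other panels show overlapping groups within each pair.

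Together the members took 888 of the 13047 counts over all annotated snRNA genes, U1 included. Their share was lowest in U1 siRNA replicate 2, at 3.17%, and highest in miR-211 replicate 1, at 9.75%. The members held very different shares of their families. The 2 U5 members took 54.7% of 1165 counts over 31 annotated U5 genes. Of the other U5 genes, RNU5D-1 had 196 counts and RNU5F-1 had 94. RNU4ATAC took 47.4% of 270 over 18 U4atac genes, and the U4 members took 23.6% of 501 over 97 U4 genes. RNU6ATAC took 2.76% of 181 counts over 41 U6atac genes, and its copy RNU6ATAC2P matched it at 99.2% of bases. The U2 family had 515 counts over 92 genes, led by RNU2-63P with 172, and none in RNU2-2P. The U7 family had 528 over 156 genes, led by RNU7-3P with 44, and none in RNU7-1. The U11 and U12 families had 26 and 5 counts.

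For miR-211 against the plasmid control, RNU4ATAC was higher in value and no member passed the test. RNU4ATAC, which pairs with U6atac in the minor spliceosome, stood at 3.62, 1.77 and 2.20 CPM in the miR-211 libraries, against 1.28, 0.719 and 1.34 CPM in the plasmid control libraries. RNU4ATAC passed the expression filter only through the miR-211 libraries, since 3 of them and 0 of the plasmid control libraries reached the filter's cutoff of 1.39 CPM. A member that passes in this way has groups that cannot overlap, so the next values are a description. The groups did not overlap, which was so in the higher direction for 3.29% of 12685 genes tested and in either direction for 9.7%. The log2 fold change was 1.16 (SE 0.40), with an unadjusted p of 0.0116 and an adjusted p of 0.996 in edgeR's quasi-likelihood test. Without the filter it was 1.15 (SE 0.41), with an adjusted p of 0.853 in edgeR. The ratio of totals was 2.18, with an exact 95% interval of 1.31 to 3.72 that covers counting error only. The strand columns gave 25 and 29 counts with miR-211, against 8 and 15 with the plasmid control. The 17 other U4atac genes summed to 18, 9 and 13 counts with miR-211, against 11, 5 and 13 with the plasmid control, where the groups overlapped. CLASP1, the gene around RNU4ATAC, had a log2 fold change of 0.16 (SE 0.12) and an adjusted p of 0.996 in edgeR.

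The U5 and U4 genes lay close to no difference in this pair, with wide errors in the main fit, which does not use the pairing of replicates. RNU5A-1 averaged 5.42 ± 2.86 CPM with miR-211 and 5.37 ± 2.37 CPM with the plasmid control (SD over 3 libraries each), with a log2 fold change of 0.02 (SE 0.35) and an adjusted p of 0.997 in edgeR. RNU5B-1 averaged 3.33 ± 1.82 CPM with miR-211 and 2.97 ± 1.07 CPM with the plasmid control, a log2 fold change of 0.16 (SE 0.37) and an adjusted p of 0.996 in edgeR. RNU4-2 averaged 1.33 ± 0.707 CPM with miR-211 and 1.49 ± 1.07 CPM with the plasmid control, a log2 fold change of -0.16 (SE 0.54) and an adjusted p of 0.997 in edgeR. Their ratios of totals were 0.988 (0.753 to 1.30), 1.08 (0.756 to 1.55) and 0.866 (0.499 to 1.50). With the replicate number as a block the errors were smaller. That pairing was taken from correlations in these same counts, so the smaller errors are only a description. With the block the log2 fold changes were 0.03 (SE 0.20) for RNU5A-1, 0.16 (SE 0.26) for RNU5B-1 and -0.10 (SE 0.39) for RNU4-2, and none passed. RNU4-1 did not pass the expression filter and had 8 counts with miR-211 and 9 with the plasmid control, a ratio of 0.825 (0.277 to 2.41) and an exact permutation p of 0.9. RNU6ATAC had 2 counts in each group. Of the 4 members that passed the filter 0 were called, against 0.00788% of all genes tested, which is MIR211 alone.

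For U1 siRNA against the scrambled oligo no member passed the test either, and 2 members passed the filter. RNU5B-1 stood at 3.15, 2.66 and 1.92 CPM in the U1 siRNA libraries, against 2.18, 1.52 and 1.40 CPM in the scrambled oligo libraries. The groups of both tested members overlapped, whereas 6.45% of all genes tested did not. RNU5B-1 passed the filter through the U1 siRNA libraries, since 3 of them and 1 scrambled oligo library reached the cutoff of 1.63 CPM, where 3 were needed. Its next values are therefore a description. The log2 fold change of RNU5B-1 was 0.59 (SE 0.38), with an adjusted p of 0.9999 in edgeR, and the ratio of totals was 1.54 (0.970 to 2.44). Without the filter it was 0.52 (SE 0.49) on the log2 scale. RNU5A-1 averaged 5.10 ± 0.198 CPM in U1 siRNA libraries and 5.33 ± 1.17 CPM in scrambled oligo libraries (SD over 3 libraries each), with a log2 fold change of -0.06 (SE 0.26) and an adjusted p of 0.9999 in edgeR. Below the filter, RNU4ATAC had 21 counts for U1 siRNA and 30 for the scrambled oligo, a ratio of 0.950 (0.517 to 1.72) and an exact permutation p of 1. RNU4-2 had 16 counts for U1 siRNA and 22 for the scrambled oligo, a ratio of 0.987 (0.485 to 1.97) and an exact permutation p of 0.8. That ratio was 0.499 without U1 siRNA replicate 1, the library with 11 of the 16 counts. RNU4-1 had 2 counts in the U1 siRNA group and 3 in the scrambled oligo group, and RNU6ATAC had 0 in the U1 siRNA group and 1 in the scrambled oligo group. Over all 12413 genes tested 0 were called by edgeR, which is 0%, and 196 (1.58%) had an unadjusted p under 0.05, against 77 with DESeq2 and 180 with limma-voom.

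**Figure D3:**
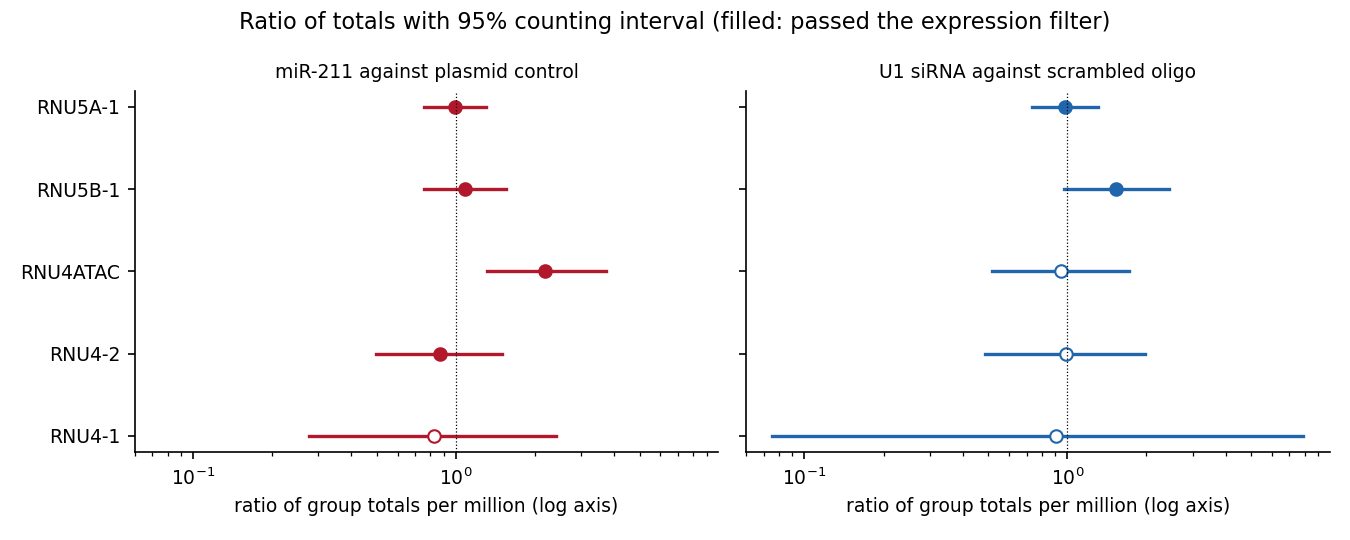
Points give the ratio of the group totals, each set against depth (horizontal log axis) for 5 snRNA genes, lines the exact 95% interval for counting error, with miR-211 against plasmid control on the left and U1 siRNA against scrambled oligo on the right; filled points passed the expression filter, and RNU6ATAC, with 5 counts in all, is not drawn. The interval lies above 1 for RNU4ATAC with miR-211, at 1.31 to 3.72, and includes 1 in the other 9 cases drawn.

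The effects of miR-211 and of U1 siRNA were set against each other by an interaction term over all 12 libraries. For RNU4ATAC the difference was 1.21 on the log2 scale (SE 0.61), with an unadjusted p of 0.0631 and an adjusted p of 0.999 in edgeR. It was 0.07 (SE 0.49) for RNU5A-1, -0.43 (SE 0.57) for RNU5B-1 and -0.05 (SE 0.94) for RNU4-2. No member was called, against 0.0074% of 13520 genes, which is again MIR211 alone, and 1.73% of those genes had an unadjusted p under 0.05, none of them a member.

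The summed members were highest in replicate 1 in all 4 groups, by more in the plasmid groups than in the oligo groups. The 10 members summed to 20.4, 10.05 and 8.80 CPM in the miR-211 libraries, against 16.4, 8.78 and 9.22 CPM in the plasmid control libraries. With the oligos the sums were 11.4, 9.30 and 9.23 CPM for U1 siRNA, against 11.3, 9.49 and 7.86 CPM for the scrambled oligo. In the plasmid groups the U1 genes were also highest in replicate 1, at 57.5, 35.1 and 40.0 CPM with miR-211, against 51.9, 31.7 and 36.2 CPM with the plasmid control. So were the snRNA genes whose symbols end in P, at 133, 84.9 and 107 CPM with miR-211, against 119, 75.1 and 82.3 CPM with the plasmid control. The share of uniquely mapped pairs outside exons was 24.3%, 16.3% and 22.9% with miR-211, against 21.8%, 14.5% and 16.8% with the plasmid control. With this share as a covariate in edgeR the log2 fold changes with miR-211 were 0.83 for RNU4ATAC, -0.25 for RNU5A-1, -0.21 for RNU5B-1 and -0.81 for RNU4-2, and none passed the test. In U1 siRNA replicate 2 the snRNA genes whose symbols end in P summed to 253 CPM, against 91.0 and 92.3 CPM in the other U1 siRNA libraries and 96.8 to 119 CPM with the scrambled oligo, while the members did not stand out there.

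**Figure D4:**
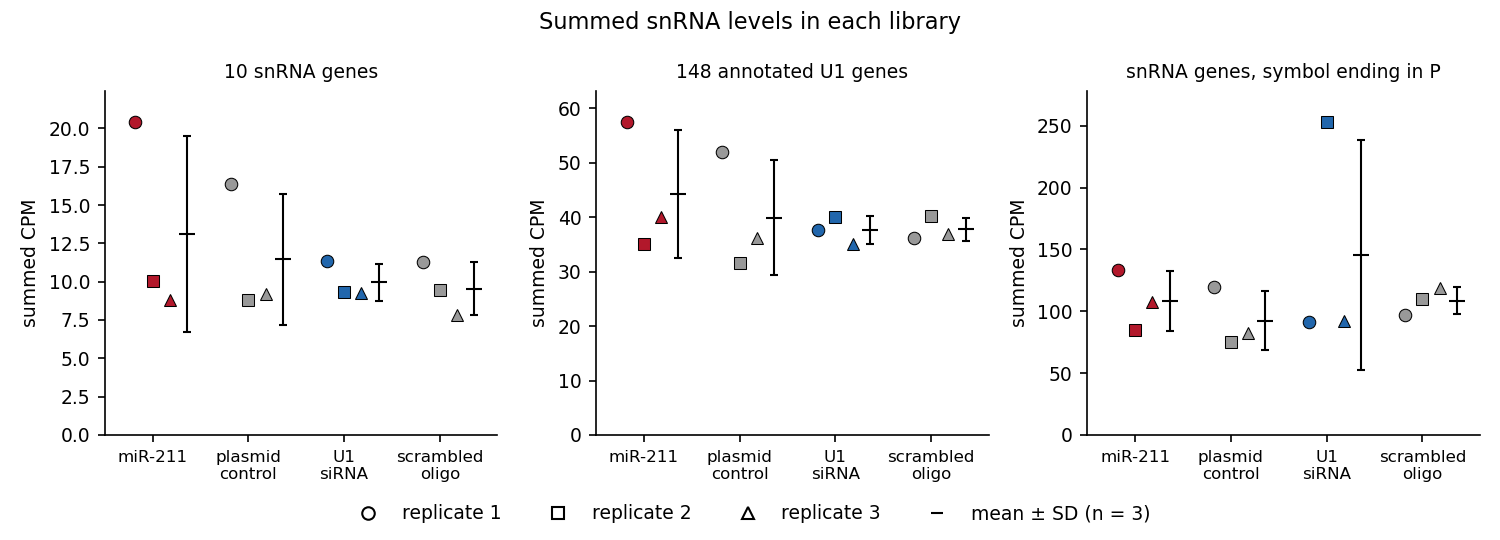
The panels give summed CPM per library (vertical axes) for the 10 snRNA genes, the 148 annotated U1 genes and the snRNA genes with symbols ending in P, with mean and SD of 3 libraries. In the first panel replicate 1 is highest in all 4 groups, and in the second and the last with miR-211 and the plasmid control. U1 siRNA replicate 2 reaches 253 CPM in the last.

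The spread between replicates was above that of counting alone for both U5 genes in the plasmid groups and for RNU4-2 in all 4 groups, as a description with no test. It was also above counting for RNU4ATAC with miR-211, for RNU5A-1 with the scrambled oligo, and for RNU4-1 with the plasmid control and with U1 siRNA. The coefficient of variation (CV) of RNU5A-1 was 52.7% with miR-211 and 44.2% with the plasmid control, where counting alone gives 16.3% and 16.7%. With U1 siRNA it was 3.88%, below the 19.0% of counting alone, and with the scrambled oligo 22.0% against 16.2%. For RNU5B-1 it was 54.7% with miR-211 and 36.1% with the plasmid control, where counting gives 20.9% and 22.4%. RNU4ATAC varied by 38.3% with miR-211 and 30.7% with the plasmid control, where counting gives 23.8% and 36.2%. RNU4-2 varied by 52.9% with miR-211, 71.7% with the plasmid control, 87.5% for U1 siRNA and 47.0% for the scrambled oligo, where counting gives 33.1%, 31.7%, 43.5% and 37.5%. A CV from 3 libraries is itself imprecise.

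**Figure D5:**
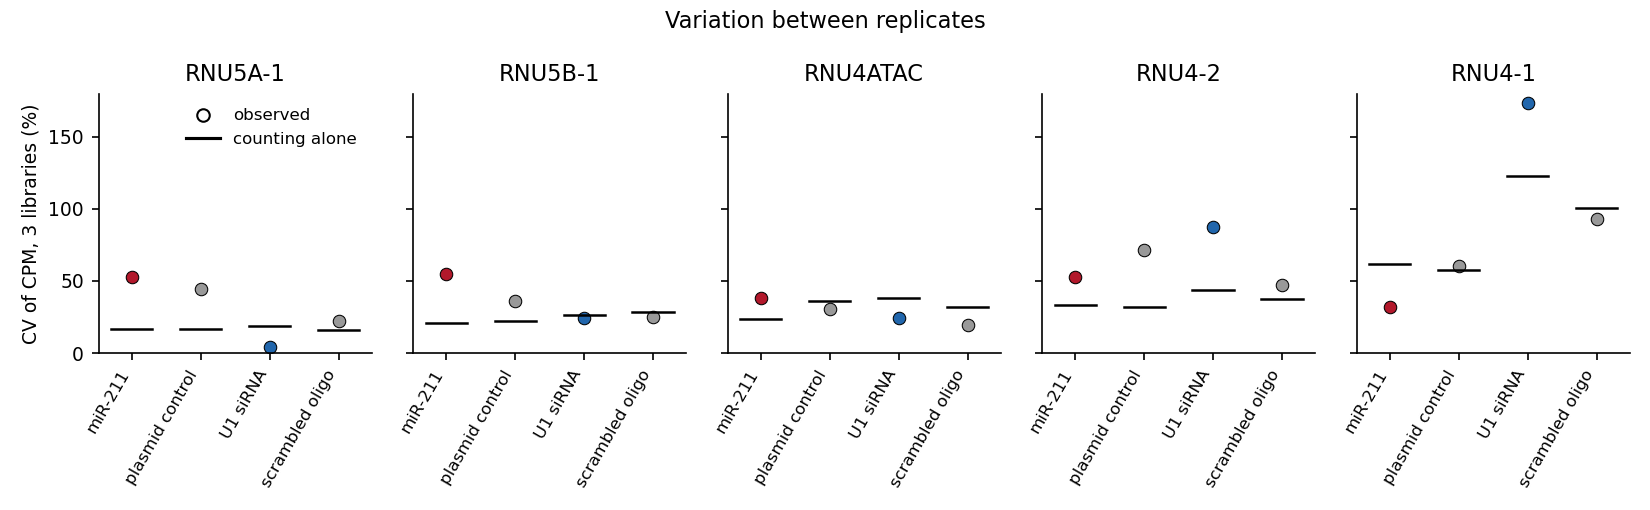
Points give the observed CV of CPM over 3 libraries (vertical axis, percent) in each group for 5 snRNA genes, and lines the CV that counting alone gives. RNU5A-1 lies above its line with miR-211 and the plasmid control, at 52.7% and 44.2%, and below it with U1 siRNA, at 3.88%.

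Over 12 libraries the SD of log2(CPM + 1) around the group means was 0.432 for RNU5A-1, 0.377 for RNU5B-1, 0.262 for RNU4ATAC and 0.520 for RNU4-2. Among genes within a factor of 2 in mean CPM, 92.4%, 67.6%, 20.9% and 82.5% had a smaller SD. RNU5A-1, RNU4-2 and RNU5B-1 thus varied more than most genes of their level, and RNU4ATAC less than most. The genes with the pattern most like the mean of the 4 members in the fit were ANXA2, TIMP1, RFX7, POU4F1 and ZCCHC12, with a mean absolute difference of 0.116 to 0.128 in centred log2 CPM over 12 libraries. The median over 14210 candidate genes was 0.279.

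The genes that make, mature and use these RNAs gave no call in either comparison. With miR-211, 4 of 21 tested genes of SNAPc and snRNA transcription were higher in value (median log2 fold change -0.06), 5 of 20 of Integrator, which cuts snRNA 3 prime ends (-0.07), and 8 of 17 of export and maturation (-0.01). It was 4 of 13 for U6 and U6atac binding proteins (-0.04), 5 of 12 for U7 and histone processing (-0.01), 8 of 16 for minor spliceosome proteins and 10 of 16 for U4/U6 and U5 proteins (0.10). Over all genes tested 51.8% were higher, with a median of 0.01. The highest of the last list, SNRNP200, the helicase that unwinds U4 from U6, averaged 501 ± 63.5 CPM with miR-211 and 410 ± 11.4 CPM with the plasmid control (SD over 3 libraries each), with a log2 fold change of 0.31 (SE 0.09) and an adjusted p of 0.996 in edgeR. SNAPC3, a subunit of the snRNA promoter factor, had -0.27 (SE 0.14), INTS9 of Integrator 0.24 (SE 0.10), TXNL4B -0.22 (SE 0.10) and ERI1, a histone mRNA exonuclease, -0.27 (SE 0.13), all log2 fold changes that did not pass.

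With U1 siRNA, 7 of 21 tested genes of SNAPc and snRNA transcription were higher in value (median log2 fold change -0.03), 13 of 19 of Integrator (0.01) and 6 of 17 of export and maturation (-0.06). It was 5 of 13 for U6 and U6atac binding proteins (-0.02), 5 of 12 for U7 and histone processing (-0.01), 7 of 16 for minor spliceosome proteins and 8 of 16 for U4/U6 and U5 proteins. Over all genes tested 54.7% were higher, with a median of 0.02. ZRSR2, which helps recognise the 3 prime splice site of minor introns, had a log2 fold change of -0.47 (SE 0.28), PPIH of the tri-snRNP -0.22 (SE 0.14), INTS11 of Integrator 0.27 (SE 0.17) and ZMAT5 of the U11/U12 particle 0.23 (SE 0.25), and none passed. Of 23 other noncoding RNAs without a poly(A) tail that were matched, 10 were at 0 in all 12 libraries, and together they summed to 34.2 to 48.7 CPM. Of the 4 tested, 3 were higher in value with miR-211 and 4 with U1 siRNA.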

How the data were processed

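Total RNA of 12 HEK293T libraries was sequenced as paired 126 nt reads, per the labels. The deposited values are counts per gene, made by the authors; STAR 2.7.2a and the builds GRCh37 and hg19 are named in the submitters' processing notes, while the gene identifiers are those of GENCODE 29 on GRCh38, which gave all coordinates and sequences here. Library selection and strandedness were not given in the sources used here. Unstranded counts were used, 4 summary lines were kept out, and totals were 4515728 to 9290686.

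edgeR 4.0.16 (R 4.3.3) fitted the counts with TMM, filterByExpr and its quasi-likelihood test, 6 libraries per comparison and 12 for the interaction, and p-values were adjusted by Benjamini-Hochberg with a threshold of 0.05. The SE given with an edgeR log2 fold change was back-calculated, as the size of that change divided by the square root of the test's F statistic. Members below the filter got 2-sided exact permutation tests in scipy 1.17.1 and ratios with exact 95% intervals. Pairs were aligned with Biopython 1.88. Variation over all libraries was taken on log2(CPM + 1). The fit was tested on simulated data. Sequences of the U5 genes are not reported here. Deviations of same-numbered libraries correlated at 0.248, 0.305 and 0.239 for the plasmids, all over 0.1, so those numbers were taken as pairing, and at 0.140, 0.0907 and -0.0480 for the oligos, which were not. The main fits used no pairing, and the replicate block did.

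All 10 members were named, and of each list the highest and lowest by signed p. Where not all ends are printed, those given were selected after their values were seen, as were the overlap classes. The members and lists were chosen with earlier results of these data known. Alternatives were DESeq2 1.42.0, limma-voom (limma 3.58.1), other scaling, filter, column, block, covariate and left-out libraries.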

Additional observations from a re-analysis of the deposited data

How the results depend on the processing

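No member was called under any of the 47 alternatives. Members with few counts cannot show small differences at this depth, and the cause of each change below was not tested. Without a low count filter 2 genes were called for miR-211, 7 for U1 siRNA and 3 for the interaction, against 1, 0 and 1 with it. Strand columns 3 and 4 gave 2 each for miR-211. With library size only the interaction gave 0, and with the replicate block 0. Leaving out libraries gave 1 to 1 for miR-211 and 0 to 1 for the interaction, where 1 gene was called without plasmid control replicate 2, U1 siRNA replicate 2 or scrambled oligo replicate 3 and 0 without any other library.

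RNU4ATAC kept its direction with miR-211 in all 13 alternatives that fitted it, at 0.83 to 1.36 on the log2 scale. In the fits of strand columns 3 and 4 it did not pass the filter and has no value. In the main fit RNU4ATAC passed the filter only through the miR-211 libraries, and its groups did not overlap. Refits of the same counts could thus hardly reverse it, so the kept direction is a description. The replicate block, which uses the pairing taken from these counts, gave 1.17 for RNU4ATAC. Its adjusted p in edgeR was then 0.606, the lowest over the alternatives for RNU4ATAC (highest 0.99997). Values near 0 changed sign. With miR-211, RNU4-2 was 0.010 in limma-voom, -0.81 with the share outside genes as covariate and -0.63 to 0.42 with a library left out. RNU5A-1 was -0.024 in limma-voom, -0.0046 with library size only, -0.12 in strand column 4, -0.25 with that covariate and -0.42 to 0.39 with a library left out. RNU5B-1 was -0.21 with that covariate and -0.33 to 0.45 with a library left out. With U1 siRNA, RNU5A-1 was 0.16 in strand column 3 and -0.22 to 0.12 with a library left out. In the interaction RNU4-2 was 0.0035 without the filter, 0.022 in DESeq2, 0.13 with the replicate block and -0.49 to 0.90 with a library left out, and RNU5A-1 was -0.36 to 0.47 with a library left out. The log2 ratio of summed member CPM was -0.28 to 0.54 for miR-211 and -0.06 to 0.20 for U1 siRNA with a library left out.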
